A study of Xenopus laevis with 8 samples.

Results

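The pan-endoderm genes described here are transcription factors and marker genes of early frog endoderm: the zinc-finger genes gata4, gata5 and gata6, the Sox17 genes sox17a and sox17b, darmin, a2m (endodermin), the homeobox genes mixer and mix1, and the T-box gene vegt. They were chosen by name, from the gene names that the deposited table gives to its probe sets, with older Xenopus names allowed. Of the 10 genes, 9 had a probe set, with 14 probe sets in all among the 15491 tested, which carry 3978 named genes. No probe set carried a name matched to a2m, which is not analysed here. Darmin stands under its own name in the deposited table and in RefSeq.

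The study used foregut explants of Xenopus laevis, taken at stage 15 and kept in culture until stage 23. In 4 samples the explant was cultured intact, with its mesoderm, and the endoderm was isolated at stage 23 ("with mesoderm"). In the other 4 the endoderm was isolated first and cultured without mesoderm ("alone"). No genotype, strain or added factor is given for either condition, both were cultured in 0.5X MBS, a frog saline, and each of the 8 samples was put on 1 Affymetrix array. Each condition has sets numbered 1 to 4, with no label that says what a set is, so p-values measure the spread between these samples, which may be technical. The time of dissection differs between the conditions together with the mesoderm, and their parts cannot be told apart.

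In Xenopus, maternal VegT, a T-box factor deposited in the vegetal part of the egg, switches on Nodal signals, and these induce the homeobox genes mix1 and mixer and the HMG-box genes sox17a and sox17b. Sox17 and the Gata4, Gata5 and Gata6 factors then maintain the endoderm program, and the Gata factors also act in heart and gut precursors. Darmin encodes a secreted protein related to M20 peptidases that is made in endoderm from gastrula stages on. VegT and the Mix genes are known for their early roles, before and during gastrulation, which precedes the stages cultured here.

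Values are RMA intensities per probe set, given on the log2 scale unless called linear. Array medians ran from 128.5 to 132.2 on the linear scale. Background was read from 44 negative control probe sets, whose means on the 8 arrays ran from 4.25 to 4.72 and whose 95th percentiles ran from 5.58 to 6.31. The endoderm identity of the samples can be read from foxa1, a forkhead factor of endoderm, and hnf4a, a nuclear receptor of gut and liver, which lay 7.17 and 6.50 above the mean of the negative controls. Set 4 had the widest differences between its 2 arrays, with an SD over all probe sets of 0.528, against 0.25 to 0.331 in the other sets, and the differences it moves are given with and without it.

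By limma, 0 of the 14 pan-endoderm probe sets differed between endoderm with mesoderm and endoderm alone, where 0% of all probe sets were called (adjusted p under 0.05, no set term). With the set as a block, limma called 0 of the 14, against a background of 0.387%, and with the set as a random effect 0 of the 14, against 0.529%. At an unadjusted p under 0.05 there were 0 of 14 without the block (background 2.48%) and 1 of 14 with it (9.35%), the probe set of sox17a. The median difference of the 14, with mesoderm minus alone, was 0.05, against 0.01 for all probe sets tested, and 10 stood above 0 and 4 below. In size, without regard to sign, the median was 0.13, against 0.11 for all probe sets. Of the 14, 4 went the same way in all 4 sets (background 18.7%): a gata5 and a mix1 probe set higher with mesoderm (background 8.35%), and a gata6 probe set and sox17a lower (10.3%).

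**Figure D1:**
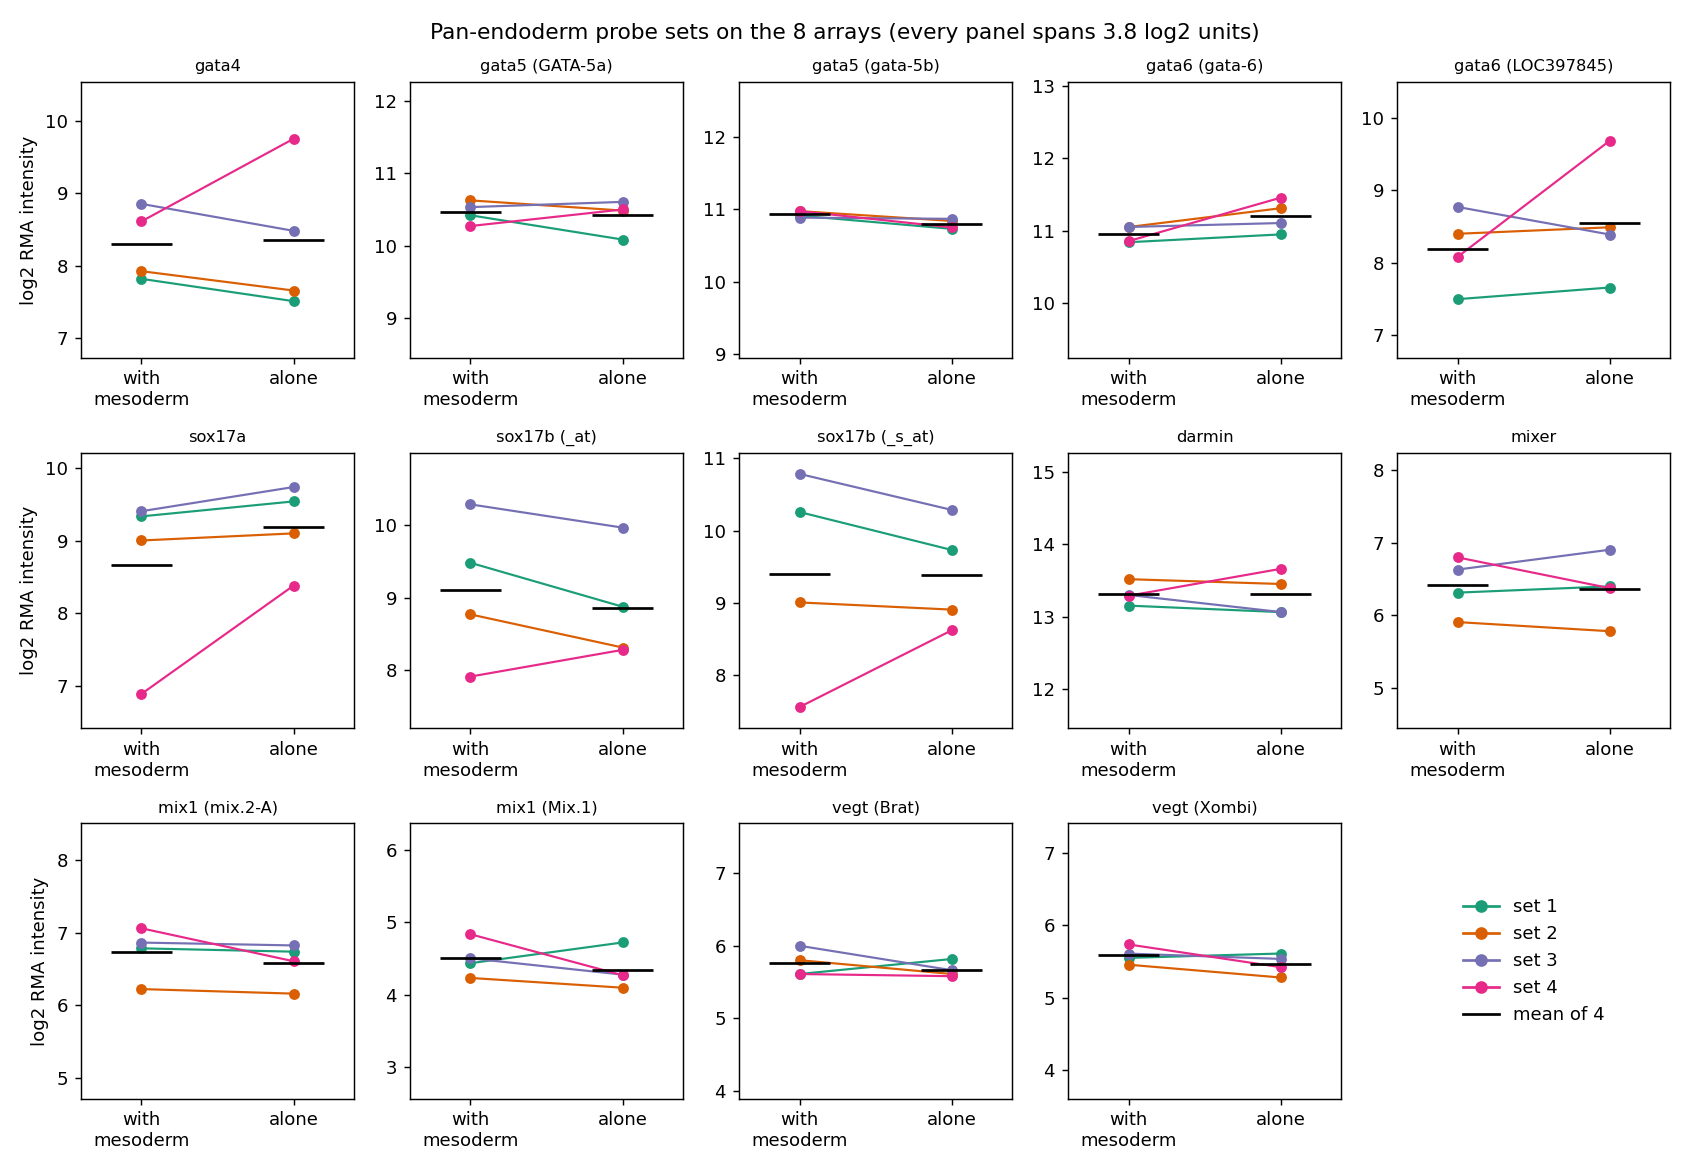
Log2 RMA intensity of the 14 pan-endoderm probe sets with mesoderm (left in each panel) and alone (right), with a line joining the 2 arrays of a set and a black bar at the mean of 4. Every panel spans the same log2 range; the steepest lines are those of set 4 in gata4, the second gata6 probe set (LOC397845) and sox17a.

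The Sox17 genes, HMG-box factors that act directly on endoderm targets, had the widest spread of the list. Sox17a had log2 levels of 9.34, 9.0, 9.41 and 6.89 with mesoderm in sets 1 to 4, against 9.54, 9.10, 9.74 and 8.38 alone. It stood lower with mesoderm in each of the 4 sets, although the conditions overlap, and the array with mesoderm of set 4 lay far below the others. The mean difference was -0.53 ± 0.65 (SD of the 4 differences within sets), with an adjusted p of 0.51 in limma with the set block and 1.00 without it. Without set 4 the difference was -0.21 (adjusted p 0.398 in limma with the set block). In set 4 itself the level alone was 2.82-fold that with mesoderm.

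Sox17b, the second Sox17 gene, was measured by a pair of probe sets. On the first, with the plain suffix _at, it had 9.48, 8.77, 10.29 and 7.91 with mesoderm, against 8.88, 8.31, 9.97 and 8.28 alone. In sets 1, 2 and 3 it was thus higher with mesoderm, by 0.61, 0.46 and 0.32, and in set 4 it was lower, at -0.37. The mean difference was 0.25 ± 0.43 and did not pass (adjusted p 0.731 in limma with the set block). Without set 4 the difference was 0.46, with an adjusted p of 0.0686 in limma with the set block, the lowest of any pan-endoderm probe set in any setting tried (for sox17b the range was from 0.0686 to 1.00), and an unadjusted p of 0.00162. In that fit 0 of the 14 were called, against a background of 1.78%. At an unadjusted p under 0.05 there were 3 of 14, both sox17b probe sets and gata4, against 14.7%.

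The other probe set of sox17b, whose suffix _s_at marks probes shared between related sequences, read 10.26, 9.01, 10.78 and 7.56 with mesoderm, against 9.73, 8.91, 10.28 and 8.62 alone. Its differences had the same signs in each set as those of the first, 0.52, 0.10, 0.50 and -1.06, and a mean of 0.02 ± 0.74 (adjusted p 0.99 in limma with the set block). Without set 4 the difference was 0.37, with a 95% interval from 0.11 to 0.64, an adjusted p of 0.162 and an unadjusted p of 0.0104 in limma with the set block. Over the 8 arrays, which share 4 sets, the Pearson r of these probe sets was 0.947. With sox17a it was 0.73 for the first and 0.875 for the second. Near-identical sequences of the Sox17 genes could contribute to each of these probe sets, and how much they share was not tested.

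Sox17a and sox17b therefore differed in sign in sets 1, 2 and 3 and were both lower with mesoderm in set 4. The change of sox17b on the _at probe set minus that of sox17a was 0.81, 0.56, 0.65 and 1.13 in sets 1 to 4, above 0 in 4 of 4 sets, with a mean of 0.79 ± 0.25. For the _s_at probe set it was 0.73, 0.20, 0.83 and 0.44, again above 0 in each set. An exact two-sided sign-flip permutation test over the 4 sets gave p = 0.125, the smallest that 4 pairs allow, for each. These were among 74 pairs of probe sets of different genes compared in this way, chosen after the values were seen. Of the 74, 16 had the same sign in all 4 sets and so the same p, which no adjustment lowers. The contrast with sox17a was not particular to sox17b. The changes of gata4, both gata5 probe sets, darmin, mixer, mix1 (mix.2-A) and vegt (Xombi) also exceeded that of sox17a in 4 of 4 sets. Those of both gata6 probe sets and vegt (Brat) did so in 3. With 4 sets the sign-flip test could not fall below 0.125, so it does not show that 2 changes were unequal. A lower p would have shown no more than that.

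The Gata genes encode zinc-finger factors that bind GATA sequences in endoderm and heart. Gata4 had 7.82, 7.92, 8.85 and 8.61 with mesoderm, against 7.51, 7.66, 8.48 and 9.75 alone. It was higher with mesoderm in sets 1, 2 and 3, by 0.31, 0.27 and 0.37, and lower in set 4, at -1.14. The conditions overlap, with a mean difference of -0.05 ± 0.73 (adjusted p 0.974 in limma with the set block). Without set 4 the difference turned to 0.32, with an adjusted p of 0.166 and an unadjusted p of 0.0112 in limma with the set block.

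Gata5 was measured by 2 probe sets, named gata-5b and GATA-5a in the table. The gata-5b probe set read 10.91, 10.97, 10.88 and 10.97 with mesoderm, against 10.73, 10.84, 10.87 and 10.75 alone. All 4 arrays with mesoderm lay above all 4 alone, though in set 3 by only 0.02. It was the 1 of 14 probe sets whose conditions did not overlap, against a background of 1.89%. The level with mesoderm was 1.1-fold that alone, a difference of 0.14 ± 0.09, which did not pass (adjusted p 0.773 in limma with the set block). Its 95% interval within sets ran from -0.11 to 0.39, the narrowest of the 14 probe sets.

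The other gata5 probe set, GATA-5a, had 10.42, 10.62, 10.53 and 10.27 with mesoderm, against 10.08, 10.48, 10.60 and 10.50 alone. It was higher with mesoderm in sets 1 and 2 and lower in sets 3 and 4, a mean of 0.04 ± 0.25 (adjusted p 0.953 in limma with the set block). With set 4 left out the difference was 0.13 on GATA-5a (adjusted p 0.672) and 0.11 on gata-5b (0.706). The gata5 probe sets differed in sign in set 3, by small differences of 0.02 on gata-5b and -0.07 on GATA-5a. They also did in set 4, at 0.23 and -0.23, and their Pearson r over the 8 arrays was 0.37.

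Gata6, known from early gut and heart, was also measured by 2 probe sets. On the one named gata-6 it had 10.84, 11.05, 11.05 and 10.86 with mesoderm, against 10.95, 11.31, 11.11 and 11.46 alone. It was lower with mesoderm in 4 of 4 sets, by differences of -0.11, -0.26, -0.05 and -0.60, and the conditions overlap by 1 array alone. The 95% interval within sets ran from -0.55 to 0.04 and the adjusted p was 0.625 (limma with the set block). Without set 4 the difference was -0.14, with an adjusted p of 0.614.

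The second gata6 probe set, listed as LOC397845, an ID that RefSeq gives to the S copy of gata6 in this tetraploid-derived genome, had 7.50, 8.40, 8.77 and 8.08 with mesoderm, against 7.66, 8.49, 8.39 and 9.68 alone. Its differences were -0.16, -0.09, 0.38 and -1.60, so that set 3 opposed the other sets. The mean was -0.37 ± 0.86 (adjusted p 0.771 in limma with the set block), and without set 4 it was 0.04. The endoderm alone of set 4 stood highest of the 8 arrays for gata4 and for both gata6 probe sets. Over the 8 arrays this gata6 probe set had a Pearson r of 0.819 with gata4 and of 0.857 with the other gata6 probe set.

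**Figure D2:**
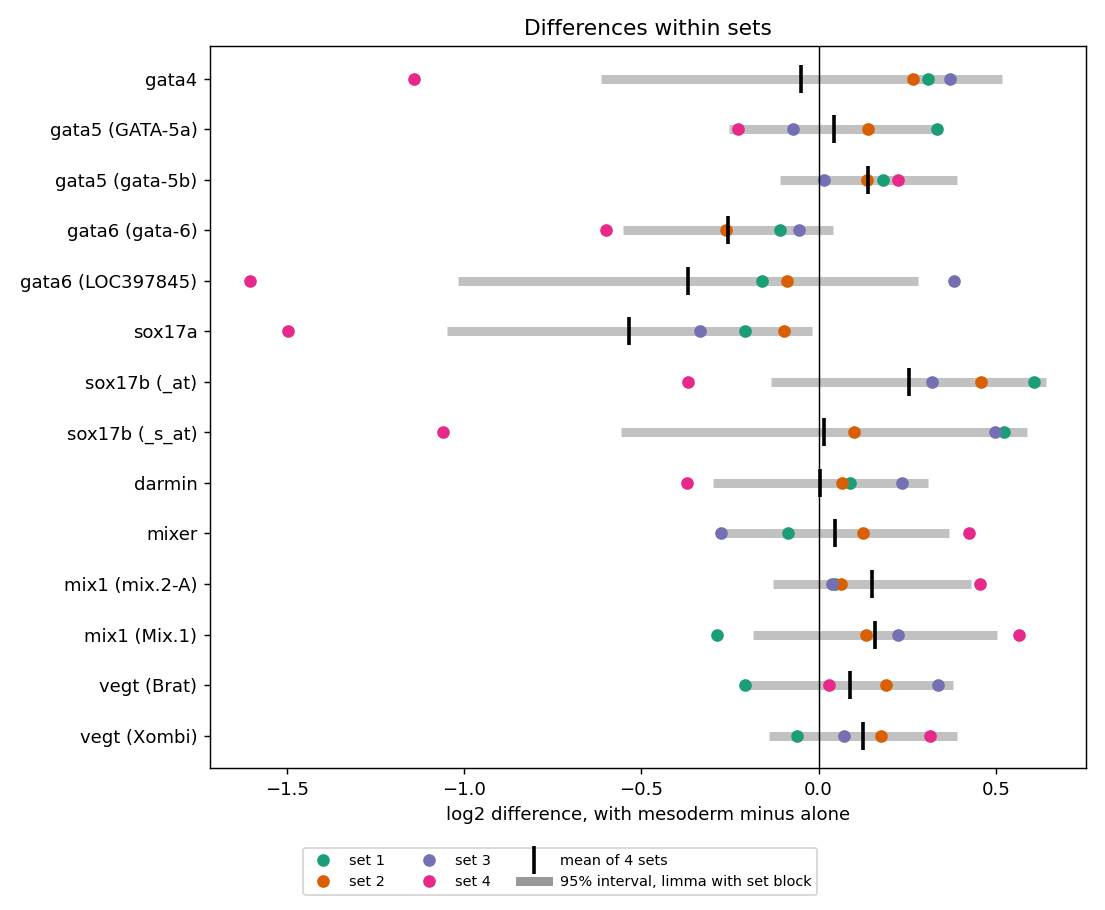
Log2 difference, with mesoderm minus alone, of each pan-endoderm probe set in sets 1 to 4 (coloured points), with the mean (black bar) and the unadjusted 95% interval from limma with the set block (grey). The interval of sox17a ends just below 0, at -0.02, and the other 13 cross 0; in set 4 gata4 and sox17b stand at -1.14, -0.37 and -1.06, opposite in sign to sets 1, 2 and 3.

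Darmin lay 8.82 above the mean of the negative controls. It read 13.15, 13.52, 13.30 and 13.29 with mesoderm, against 13.06, 13.45, 13.06 and 13.66 alone. The values with mesoderm lay within the range of those alone, with a mean difference of 0.01 ± 0.26 and a 95% interval within sets from -0.30 to 0.31 (adjusted p 0.994 in limma with the set block). Darmin was higher with mesoderm in sets 1, 2 and 3 and lower in set 4, the same signs as gata4 and sox17b, and without set 4 its difference was 0.13 (adjusted p 0.642). Its fold between conditions was thus 1.00, and the widest in a single set was the 1.29-fold higher level alone in set 4.

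The Mix genes and vegt, the early genes of the list, lay nearest to background. Mixer and the mix.2-A probe set of mix1 passed the 95th percentile of the negative controls on 8 of 8 arrays, at 1.89 and 2.16 above their mean. Mixer, a Nodal-induced homeobox gene that the table lists only by gene ID, had 6.31, 5.90, 6.63 and 6.80 with mesoderm, against 6.40, 5.78, 6.90 and 6.37 alone. These values followed the negative controls of the same arrays, with a Pearson r of 0.92 over the 8 arrays, against a median r of 0.113 for all probe sets and 0.386 for the 4081 probe sets of like dimness. With the mean of the negative controls subtracted, a scaling chosen after seeing the data, the difference of mixer was 0.00 ± 0.09, against 0.05 ± 0.30 as deposited. Leaving out set 4 turned the deposited difference to -0.08 (adjusted p 0.834 in limma with the set block).

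Mix1, the other Nodal-induced homeobox gene, read 6.79, 6.22, 6.87 and 7.06 with mesoderm on the probe set named mix.2-A, against 6.74, 6.16, 6.83 and 6.61 alone. As deposited it was higher with mesoderm in each set, by 0.05, 0.06, 0.04 and 0.45, a mean of 0.15 ± 0.20 (adjusted p 0.789 in limma with the set block). Over sets 1, 2 and 3 the difference was 0.049 (adjusted p 0.887), and with the negative control mean subtracted it was 0.11 ± 0.10, above 0 in 3 of 4 sets. Its r with the negative controls was 0.895, and the negative controls themselves differed by a median of 0.36 in set 4. The probe set named Mix.1 lay between 4.10 and 4.84 and above the 95th percentile of the negative controls on 0 of 8 arrays, so that these values are only a bound.

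Vegt, the T-box gene at the head of the program, was listed under Brat and Xombi. The Brat probe set read 5.61, 5.80, 6.0 and 5.61 with mesoderm, against 5.82, 5.61, 5.66 and 5.58 alone, and passed the 95th percentile of the negative controls on 3 of 8 arrays. The Xombi probe set lay between 5.28 and 5.73, and passed it on 0 of 8, with an r of 0.883 to the negative controls. Differences were 0.09 ± 0.23 on Brat and 0.13 ± 0.16 on Xombi, and without set 4 they were 0.11 and 0.063. So near to background a lower level could not be seen.

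**Figure D3:**
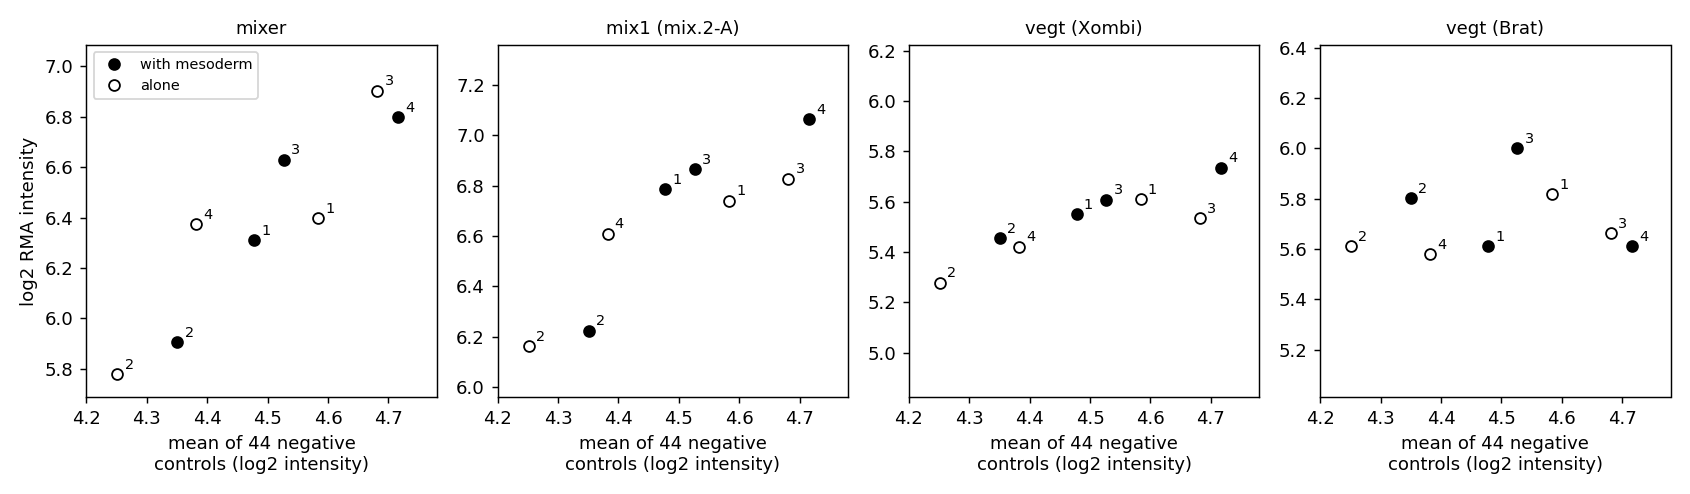
Log2 RMA intensity of mixer, a mix1 probe set and both vegt probe sets against the mean of 44 negative control probe sets on the same array (filled, with mesoderm; open, alone; digits are set numbers). In the first 3 panels the points lie along a rising line, with Pearson r of 0.92, 0.895 and 0.883; in the last, the Brat probe set, r is 0.09.

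More of the probe sets were called between sets than between conditions. Limma's F test over the set terms, with condition in the model, called 6 of the 14 probe sets (adjusted p under 0.05), against a background of 30.7%. The 6 were both sox17b probe sets (adjusted p 0.00444 and 0.00812), sox17a (0.0112), gata4 (0.0302), mixer (0.0326) and mix1 (mix.2-A; 0.048). The median share of the sum of squares that lay between sets was 64% over the 14 probe sets and 73.6% over all probe sets, while between conditions it was 7.43% and 4.21%. The sets carry 3 degrees of freedom and the condition 1, so these shares would differ without any effect. For gata-5b the share was larger between conditions, 66.5% against 12.9% between sets, as it was for gata-6, 40.7% against 31.2%. With the negative control mean subtracted, 0 of the 6 passed (adjusted p 0.0568, 0.0708, 0.0743, 0.172, 0.093 and 0.221 in the same order). Without set 1 or without set 2 there were 3, the Sox17 probe sets, and without set 4 there were 7, with the second gata6 probe set (adjusted p 0.000898) added. Over all probe sets the calls moved as well, from 4763 in the main fit to between 1463 and 9716 without 1 set. They also fell with the negative control mean subtracted, as the closing section gives. These shifts in the count are thus not particular to the pan-endoderm genes.

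The _s_at probe set of sox17b had set means of 9.99, 8.96, 10.53 and 8.09, a range of 5.43-fold, and sox17a set means of 9.44, 9.05, 9.58 and 7.63, a range of 3.84-fold. Set 3 was thus the highest and set 4 the lowest for all 3 Sox17 probe sets. Gata4 was ordered otherwise, with set means of 7.66, 7.79, 8.67 and 9.18, lowest in set 1 and highest in set 4, a range of 2.86-fold. The second gata6 probe set had 7.58, 8.44, 8.58 and 8.88, also lowest in set 1 and highest in set 4, but did not pass (adjusted p 0.108). By contrast the set means of the gata-5b probe set spanned 1.06-fold, those of the gata-6 probe set 1.22-fold and those of darmin 1.3-fold, with adjusted p from 0.236 to 0.958.

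**Figure D4:**
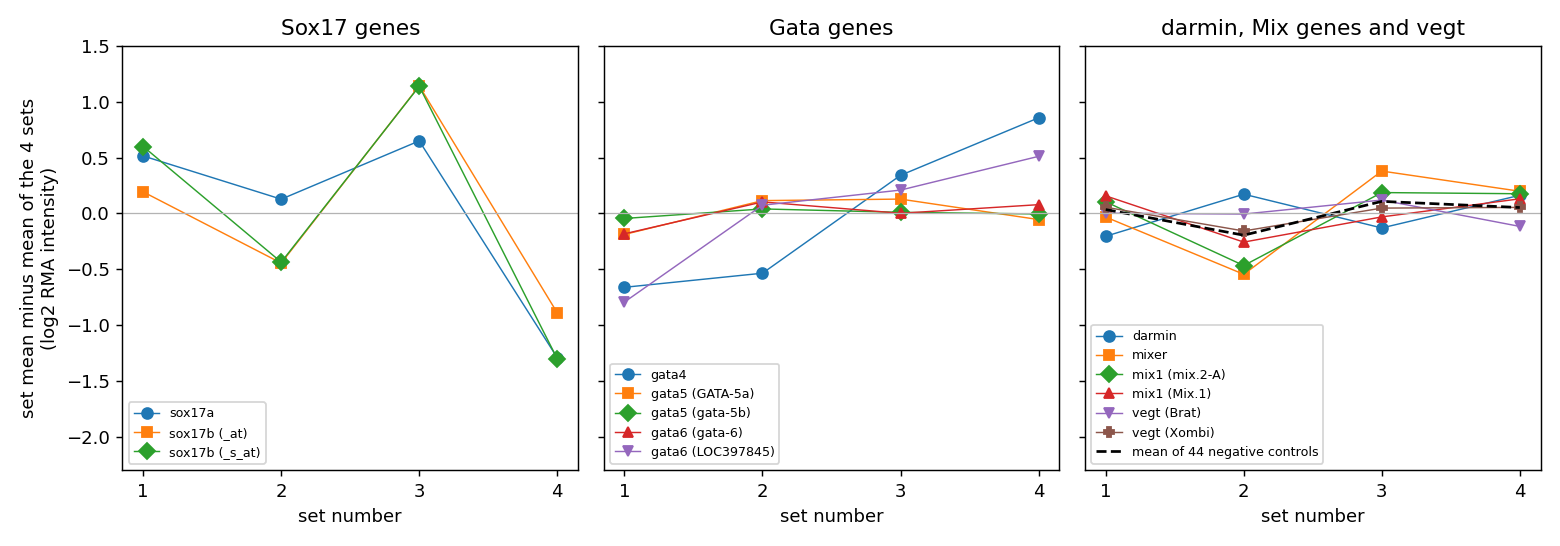
Mean of the 2 arrays of each set minus the mean of the 4 sets, in log2 RMA intensity, for the Sox17 genes, the Gata genes, and darmin, the Mix genes and vegt, with the mean of 44 negative controls (dashed). Lines only join the values of a probe set, since set numbers have no order; the Sox17 genes are highest in set 3 and lowest in set 4, and gata4 is lowest in set 1 and highest in set 4.

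Other genes of the endoderm program were counted from lists, with the brightest probe set of each gene. Over all probe sets tested, 7991 of 15491 stood higher with mesoderm and 0.387% were called within sets. Of 17 measured genes of Nodal signalling, 0 were called within sets, where 13 stood higher and 4 lower with mesoderm, a median of 0.09. Of the 17, 12 lay at least 1 above the negative controls. The mean level of the list differed most in set 4, 6.52 with mesoderm against 6.25 alone. In that set the negative controls were also higher with mesoderm, by a median of 0.36, and their part in these signs was not tested. The lowest unadjusted p was that of furin, a protease that cleaves Nodal-class precursors, whose difference of 0.60 ± 0.27 was above 0 in 4 of 4 sets (adjusted p 0.171 in limma with the set block). Foxh1, the forkhead partner of Smads in Nodal signalling, came next at 0.26 ± 0.34 (adjusted p 0.675). Of the Nodal ligand genes, nodal, listed as Xnr4, lay at background, 0.14 below the mean of the negative controls. Nodal1, nodal2 and nodal6 lay 0.63, 1.74 and 1.05 above that mean.

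Of 23 other endoderm and organizer factors measured, 0 were called within sets, with a median of 0.04 and 15 at least 1 above the negative controls. The lowest unadjusted p was that of lhx1, a LIM homeobox gene of the organizer that lies at background (0.36 ± 0.33, adjusted p 0.49 in limma with the set block). Of the other members of the Mix and Bix family, 3 were measured and 0 called, and only bix1.3 lay at least 1 above the negative controls, at a difference of 0.12 ± 0.30, with bix1.2 at 0.12 ± 0.43 below that level. Of 7 measured genes of the wider Gata family and its cofactors, 0 were called; lmo2, a cofactor of Gata factors in blood, stood at 0.71 ± 0.36, higher in 4 of 4 sets (adjusted p 0.139), and gata2 at 0.15 ± 0.38.

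Of 13 measured genes in a list of foregut, gut and epithelial genes often placed downstream of these factors, 0 were called, and 6 stood higher and 7 lower, a median of -0.01. Epcam, an epithelial adhesion molecule, read 9.47, 9.83, 9.78 and 8.97 with mesoderm, against 10.28, 10.38, 10.34 and 9.86 alone. It was lower with mesoderm in 4 of 4 sets, by -0.70 ± 0.17, and was not called. The adjusted p was 0.0614 in limma with the set block and 0.9999 without it. Fabp2, a fatty acid binding protein of the gut, stood at -0.42 ± 0.41 near background (adjusted p 0.459).

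Markers of other cell types were read from lists in the same way. Of 14 mesoderm and heart markers 11 stood higher with mesoderm and 0 were called, and 10 lay at least 1 above the negative controls. The mean log2 level of the list was 5.89, 5.56, 6.09 and 6.09 with mesoderm in sets 1 to 4. Alone it was 5.97, 5.44, 6.09 and 5.49, so that the conditions differed most in set 4. In that set the negative controls were also higher with mesoderm, by a median of 0.36. Their part in the signs of this list and of the ectoderm list below was not tested. Tbx2, a T-box factor of heart and other tissues, stood at 0.55 ± 0.32 (adjusted p 0.233 in limma with the set block). Twist1, of mesenchyme, stood at 0.38 ± 0.39 (adjusted p 0.504 in limma with the set block), near background. Its mean lay 1.15 above that of the negative controls, but every array read below their 95th percentile on the same array. Foxf1, of lateral plate mesoderm, and meox2, of somites, also lay at background. Of 10 blood and vessel markers all stood higher with mesoderm (7991 of 15491 over all probe sets). Of these 10, 9 lay at least 1 above the negative controls. Within sets 1 was called (background 0.387%), lcp1, an actin-bundling protein of leukocytes, at 1.69 ± 0.76. Its adjusted p was 0.049 in limma with the set block and 0.447 without it. The mean level of the blood list ran from 7.32 to 7.77 with mesoderm and from 6.82 to 7.03 alone. Of 6 ectoderm markers, 5 stood higher and 0 were called. Dlx3, of ventral ectoderm, stood at 0.36 ± 0.12 near background, 0.54 above the mean of the negative controls. Sox2, of neural plate, stood at 0.28 ± 0.57. The mean level of the ectoderm list was 6.16, 6.15, 6.30 and 6.0 with mesoderm in sets 1 to 4. Alone it was 6.16, 6.27, 6.24 and 5.34, so that here too the conditions differed most in set 4. Nkx2-5, a heart and pharyngeal homeobox factor named after its values were seen, read 8.77, 8.44, 8.79 and 6.97 with mesoderm. Alone it read 8.76, 8.68, 8.10 and 5.55, so that it was lowest in set 4. The mean of the mesoderm and heart list was instead lowest in set 2 in both conditions, so nkx2-5 does not stand for that list. In bulk samples fewer cells of a type and less RNA per cell cannot be told apart, and the part of such cells in the values of gata4, gata5 and gata6, which heart and other mesoderm also express, was not tested.

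As a description of likeness, the Pearson r over the 8 arrays was taken between the brightest probe set of each pan-endoderm gene and 2875 named genes with a mean log2 level of at least 6. Nearest to gata4 were ltv1 (0.982), sord (0.976) and armc1 (0.975). Nearest to gata6 were slc31a2 (0.974), serpine2 (0.955) and ssrp1 (0.955). For sox17b they were ttyh2 (0.989), snrpc (0.974) and slc22a4 (0.95), and for sox17a ddx46 (0.976), rab5a (0.953) and ccnh (0.953). Nearest to darmin were polr3c (0.989), ap3s1 (0.978) and cybrd1 (0.971), and to gata5 cdc37 (0.914), snapc5 (0.896) and atf4 (0.856). For mixer they were en1 (0.997), gsk3b (0.986) and brdt (0.985), for mix1 chrne (0.981), pax8 (0.977) and nkx3-3 (0.975), and for vegt vps28 (0.817), myg1 (0.804) and lbh (0.772). The arrays share 4 sets, and the highest of many such values is high by selection. The vegt probe set used here, Brat, passed the 95th percentile of the negative controls on only 3 of 8 arrays. The probe sets of mixer and mix1 also followed the negative controls of the same arrays (Pearson r 0.92 and 0.895). Whether the genes nearest to mixer and mix1 follow the negative controls too was not tested.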

How the data were processed

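The deposited values are RMA intensity values, 1 per probe set and Affymetrix array, per the submitters' processing notes, and the deposited intensity is on a linear scale. Per the file headers, 2 data sets may have been exported as one. The RMA version is not given in the sources used here. The deposited series matrix held the same number in each of the 124888 cells compared. Log2 was taken of each value. The table has 15611 probe sets, of which 120 controls were left out and 15491 tested. Names were matched to a RefSeq gene table (Xenopus_laevis_v10.1) by symbol for 2030 probe sets, gene ID for 2106 and synonym for 1323, and 421 kept the file's name. Positions and sequences are not used here.

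Endoderm with mesoderm was compared with endoderm alone by limma 3.58.1 in R 4.3.3 (lmFit, eBayes, Benjamini-Hochberg over all tested probe sets, called under 0.05), without a set term as the main fit and with the set as a block beside it. The set numbers pair the arrays: deviations from the condition means correlated at 0.844, 0.85, 0.689 and 0.321 in sets 1 to 4, above the 0.1 required. Differences are with mesoderm minus alone, and ± gives the SD over the within-set differences (n = 4). Calls between sets came from limma's F test. The 44 negative controls are bacterial spike and tag probe sets of the array. Precision is limited by the number of arrays, 4 in each condition. The fits were tested on simulated data.

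All probe sets of the pan-endoderm genes are named; from the other lists, those called within sets or else the 2 of lowest unadjusted p, plus foxa1 and hnf4a as endoderm checks nodal, bix1.3, foxf1 and meox2 for their levels, and nkx2-5, named after their values were seen. One gene that this rule picks is not reported here. The genes, lists and tests were chosen with earlier results of these data known. Alternatives are given in the closing section.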

Additional observations from a re-analysis of the deposited data

Results flagged for a closer look

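Of 28 groups of 4 arrays tested (14 probe sets in 2 conditions), 1 held an array far from the other 3 by Dixon's criterion at the 95% level: sox17a with mesoderm, where set 4 read 6.89 on the log2 scale. Chance alone flags about 1 in 20 such groups.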

How the results depend on the processing

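The count of pan-endoderm probe sets called between the conditions was 0 under every alternative run, and the lowest adjusted p was 0.0686. Limma's calls over all probe sets, 0 in the main fit, became 60 with the set (replicate) as a block, 82 with the set as a random block, 21 after cyclic loess with the block and 1 with the negative control mean subtracted and the block, and ran from 0 to 275 when arrays or sets were left out (275 without set 4, with the block). Calls between sets over all probe sets, 4763 in the main fit, became 7208 at a threshold of 0.1, 1186 at 0.01 and 1173 with the negative control mean subtracted, and ran from 1463 to 9716 without 1 set. For the pan-endoderm probe sets they were 6, became 2 at 0.01 and 0 with the negative control mean subtracted, and ran from 3 to 7 without 1 set (3 without set 1 or set 2). In limma's F test mix1 (mix.2-A) also lost its call after quantile normalization (adjusted p 0.0789) and cyclic loess (0.0504). It lost it with trend and robust variance too (0.0558), while the others of the 6 kept theirs under these 3 settings. The cause of these shifts was not tested. The set block changed no call of a pan-endoderm probe set.

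Differences of single probe sets kept their sign in 386 of 430 comparisons with the main fit, and 6 of the 14 probe sets never turned. Gata4 turned to 0.014 after quantile normalization, darmin to -0.029 with array weights and to -0.038 with the negative control mean subtracted, and sox17b on its _s_at probe set to -0.028 with that scaling, the set block included or not. With arrays or sets left out, the difference ran from -0.33 to 0.42 for gata4, from -0.67 to 0.043 for gata6 (LOC397845), from -0.15 to 0.23 for mixer, from -0.80 to 0.057 for sox17a, from -0.14 to 0.65 and from -0.44 to 0.63 for the _at and _s_at probe sets of sox17b, from -0.067 to 0.13 for gata5 (GATA-5a) and from -0.077 to 0.13 for darmin. Signal over background limits the Mix and vegt values.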
